A study of Rattus norvegicus with 6 samples.

Results

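The blood of rats after middle cerebral artery occlusion (MCAO) was examined for 9 genes known to be induced by interferon: Irf7, Isg15, Ifi27, Rsad2, Mx1, Mx2, Slfn4, Slfn5 and Ly6e. They were represented by 13 of the 31042 probe sets that remained after control probe sets were left out, 12 of them assigned to these genes by the array annotation and 1 (1392842_at, Slfn5) by the gene list of the study. Of 14217 gene symbols on the array these are 9. The genes were proposed with the comparison of the groups in view, so that their own differences and error rates are given as a description and are no independent test. The MCAO group held 3 male Sprague-Dawley rats, 8 weeks old, in which a coated thread had closed the middle cerebral artery, and the sham group held 3 male rats of the same strain and age that received an uncoated thread. In both groups blood was drawn from the heart 24 h after reperfusion, and each rat had its own array, made from 100 ng of total RNA. The MCAO rats put on arrays had been selected by the size of the infarct, so that they stand for a narrow band of the model. Whole blood holds many cell types, and fewer cells of a type and less RNA per cell cannot be told apart in such samples.

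Interferons are secreted proteins by which cells announce a viral infection. Type I interferons bind their receptor on nearly every cell, activate the kinases Jak1 and Tyk2, and in the end switch on a large set of genes that carry the interferon-stimulated response element in their promoters. In blood these genes are used as a readout of interferon exposure of leukocytes, and they commonly move together.

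RefSeq promoters of the build GRCr8, each of 300 bases from 250 before to 50 after a start site, were matched by symbol for 6 of the 9 genes (Ifi27, Irf7, Rsad2, Slfn4, Slfn5 and Mx1), with 7 entries because Slfn5 had 2. The letters searched were a core of the interferon-stimulated response element, 2 copies of GAAA with any 2 bases between them or, on the other strand, 2 copies of TTTC with any 2 bases between them. This core was found in 4 of the 6 genes, in Ifi27, Irf7, Rsad2 and the entry of Slfn5 at chr10:68378361-68378660 (+ strand), and in 3.92% of all 33469 promoters. The promoters of Ifi27, Irf7 and Rsad2 are shown because all 3 hold the core and their orders of the rats are compared below. In the values as deposited, Ifi27 and Irf7 had nearly the same order of rats in blood. Rsad2 had another, which quantile normalization removed. Whether the core bears on these orders was not tested. Ifi27 lies at chr6:128355062-128355361 (+ strand), Irf7 at chr1:205799974-205800273 (− strand) and Rsad2 at chr6:48788071-48788370 (− strand), and capitals mark the core.
Ifi27: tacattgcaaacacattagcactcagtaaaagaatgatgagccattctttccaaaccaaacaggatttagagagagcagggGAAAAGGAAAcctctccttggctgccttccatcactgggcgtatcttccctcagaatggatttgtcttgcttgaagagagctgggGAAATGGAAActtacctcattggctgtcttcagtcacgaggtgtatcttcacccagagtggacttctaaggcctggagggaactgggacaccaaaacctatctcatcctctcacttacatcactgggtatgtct
Irf7: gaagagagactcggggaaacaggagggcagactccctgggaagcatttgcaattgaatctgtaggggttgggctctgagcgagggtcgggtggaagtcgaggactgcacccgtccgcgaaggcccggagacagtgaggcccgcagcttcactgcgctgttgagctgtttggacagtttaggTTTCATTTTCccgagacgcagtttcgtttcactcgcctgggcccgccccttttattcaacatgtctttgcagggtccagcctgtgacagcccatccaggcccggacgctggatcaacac
Rsad2: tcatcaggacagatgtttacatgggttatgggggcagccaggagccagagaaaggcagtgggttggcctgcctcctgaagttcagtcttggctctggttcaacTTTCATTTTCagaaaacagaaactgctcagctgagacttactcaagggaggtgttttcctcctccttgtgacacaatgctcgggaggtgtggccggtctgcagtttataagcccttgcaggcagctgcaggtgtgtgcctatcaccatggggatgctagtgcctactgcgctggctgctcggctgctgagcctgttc
Ifi27 held 2 cores, which begin 169 and 84 bases before the start, and 2 or more were present in 0.266% of all promoters. In Irf7 the core began 69 bases and in Rsad2 147 bases before the start, with the same letters in both. A match of letters is a description of the sequence and no measurement of binding.

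All expression values are log2 values on the scale of DFW (Distribution Free Weighted), a summary method that shrinks the spread between arrays by a different amount for each probe set, so that a log2 difference here is no fold change of the raw signals. Over the 6 rats the SD of the median probe set was 2.46e-06, and 168 of the 31042 had a range above 0.01. Of the 13 members, 8 belonged to the 1000 probe sets of widest range and 5 did not. Rank Products, the rank-based method of the study, gave a false discovery rate (FDR) under 0.05 for lower expression in the MCAO group to 0.628% of the 31042 probe sets and for higher expression to 0.129%, and 226 of these 235 belonged to the 1000 of widest range. With limma no probe set passed an adjusted p of 0.05 (Benjamini-Hochberg), and 1150 had an unadjusted p under 0.05.

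The 9 genes did not move as a block. Irf7, Isg15, Ifi27 and 1 of 2 probe sets of Slfn4 (1387134_at) were highest in MCAO rat 3, and each was lowest in one of the other MCAO rats. The 4 probe sets of Slfn5 and Ly6e were lowest in MCAO rat 1, and sham rat 2 was highest in 3 of them and sham rat 3 in Ly6e 1393776_at, with MCAO rat 3 between the sham rats. Rsad2 was lower in all MCAO rats than in all sham rats, and lowest in MCAO rat 3. The probe sets of Mx1 and Mx2 were outside the 1000 of widest range, and the ranges of Mx2 were of the order of the median probe set.

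**Figure D1:**
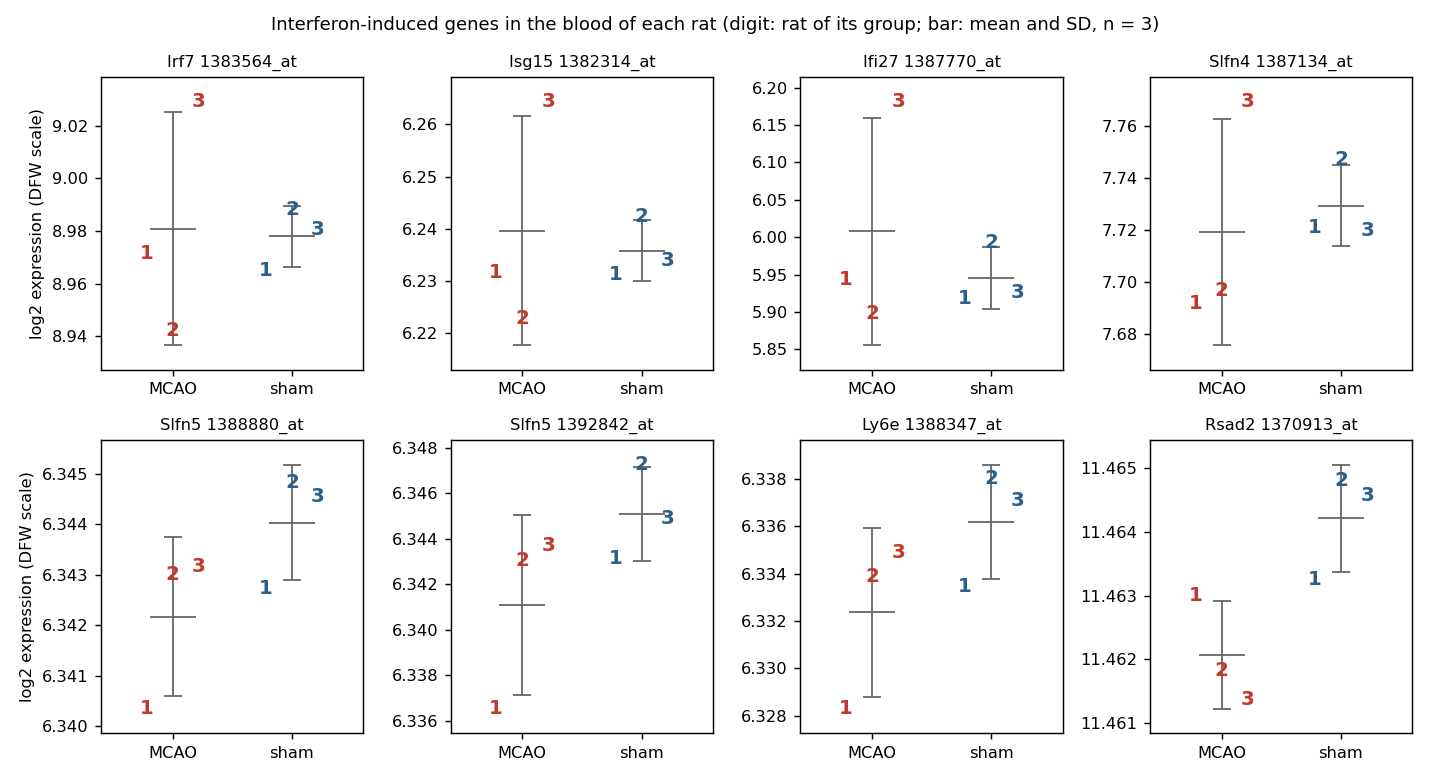
Log2 expression on the DFW scale (y axis, a different span in each panel) of the 8 probe sets with a wide range, in the MCAO group (left in each panel) and the sham group (right). Digits stand for the rats of a group and bars for mean and SD (n = 3), and MCAO rat 3 is the highest rat in the 4 panels of the upper row and the lowest for Rsad2.

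Irf7 is the transcription factor that amplifies type I interferon production and is itself induced by interferon. Its probe set 1383564_at had 8.971, 8.942 and 9.029 in MCAO rats 1, 2 and 3, against 8.965, 8.988 and 8.980 in sham rats 1, 2 and 3. The highest and the lowest rat of the 6 were both MCAO rats, and the sham rats lay between them. The MCAO mean was 8.981 ± 0.044 and the sham mean 8.978 ± 0.012 (SD, n = 3 each), which differ by 0.0030 on the log2 scale (SE 0.025). Irf7 had an FDR of 0.0529 for lower and 0.393 for higher expression. Its range over the rats ranked 14 among all probe sets, and the step between MCAO rat 3 and the next rat made up 47.1% of that range.

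Isg15 encodes a ubiquitin-like protein that is attached to other proteins in interferon-treated cells. Its probe set 1382314_at had 6.232, 6.223 and 6.264 in MCAO rats 1, 2 and 3, against 6.231, 6.242 and 6.234 in the sham rats. The order of the 6 rats, MCAO rat 3, sham rat 2, sham rat 3, MCAO rat 1, sham rat 1 and MCAO rat 2 from high to low, was the same as that of Irf7. Among the 1000 probe sets of widest range, no other had this order. The log2 difference of Isg15 was 0.0038 (SE 0.012), and its FDR was 0.137 for lower and 0.591 for higher expression, with MCAO rat 3 ahead of the next rat by 53.0% of the range.

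Ifi27 encodes a small mitochondrial membrane protein and is among the most strongly interferon-induced transcripts of human blood. Its probe set 1387770_at had 5.944, 5.898 and 6.181 in MCAO rats 1, 2 and 3, against 5.918, 5.993 and 5.926 in sham rats 1, 2 and 3. MCAO rat 3 was far above the other 5 rats, and MCAO rat 2 was below all of them. The MCAO mean was 6.01 ± 0.15 and the sham mean 5.946 ± 0.041 (SD, n = 3 each), and their log2 difference of 0.062 was less than its SE of 0.086. The range of Ifi27 ranked 4 among all probe sets, and 66.5% of it was the step between MCAO rat 3 and sham rat 2. Ifi27 was the 1 member with an FDR under 0.05 for higher expression (0.0309), and its FDR for lower expression was 0.102.

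Rsad2 encodes viperin, an antiviral enzyme of the endoplasmic reticulum. Its probe set 1370913_at had 11.4630, 11.4618 and 11.4614 in MCAO rats 1, 2 and 3, against 11.4633, 11.4648 and 11.4646 in the sham rats. It was the only member whose groups did not overlap, a feature shared by 3.60% of all probe sets with the MCAO group below and 4.82% with the MCAO group above. The MCAO mean was 11.46207 ± 0.00084 and the sham mean 11.46422 ± 0.00084 (SD, n = 3 each), so that MCAO minus sham was -0.0021 (SE 0.00065). The FDR of Rsad2 for lower expression was 0.0109. After quantile normalization of the values the difference of Rsad2 was 0 and it was no longer under the threshold, since it has the same rank on all arrays. The order put MCAO rat 3 last, the reverse of its place in Irf7, Isg15 and Ifi27.

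Slfn4 and Slfn5 belong to the schlafen family, named for its effect on lymphocyte growth in mice. Slfn4 1387134_at had 7.691, 7.697 and 7.769 in MCAO rats 1, 2 and 3, against 7.721, 7.747 and 7.720 in the sham rats. MCAO rats 1 and 2 were below all sham rats and MCAO rat 3 above all of them, so that the mean log2 difference of -0.010 was smaller than its SE of 0.025. Its FDR for lower expression was 0.00558. The other probe set of Slfn4, 1371163_at, ranged over only 1.27e-05, was highest in MCAO rat 1 and correlated with 1387134_at at r = -0.54 over the 6 rats.

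Slfn5 1392842_at had 6.3365, 6.3431 and 6.3437 in MCAO rats 1, 2 and 3, against 6.3431, 6.3473 and 6.3449 in the sham rats. MCAO rat 1 stood lowest by itself, MCAO rat 2 was just below sham rat 1, and MCAO rat 3 lay between sham rats 1 and 3. MCAO minus sham was -0.0040 (SE 0.0024), and the FDR for lower expression was 0.0206. The second probe set of Slfn5, 1388880_at, had 6.3404, 6.3430 and 6.3432 in MCAO rats 1, 2 and 3, against 6.3427, 6.3448 and 6.3445 in the sham rats. MCAO minus sham was -0.0019 there (SE 0.0011), the FDR was 0.0793, and the 2 probe sets correlated at r = 0.97.

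Ly6e encodes a membrane-anchored protein of the Ly6 family that is induced by type I interferon. Its probe set 1388347_at had 6.3283, 6.3339 and 6.3349 in MCAO rats 1, 2 and 3, against 6.3335, 6.3380 and 6.3371 in the sham rats. The rats had the same order as for Slfn5 1388880_at, and 57 of the 1000 probe sets of widest range shared it. MCAO minus sham was -0.0038 (SE 0.0023), and the FDR for lower expression was 0.0345. After quantile normalization its FDR was no longer under 0.05. Ly6e 1393776_at ranged over 0.000213, with a log2 difference of -7.75e-05 (SE 5.3e-05).

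Mx1 and Mx2 encode dynamin-like GTPases that block viruses, and Mx1 is widely used as a marker of interferon action. Mx1 1371015_at had 5.73397, 5.73401 and 5.73404 in MCAO rats 1, 2 and 3, against 5.73404, 5.73406 and 5.73399 in the sham rats. The groups overlapped, and the range of 8.96e-05 ranked 3493 among all probe sets. The 2 probe sets of Mx2 ranged over 6.72e-06 (1369202_at) and 8.70e-06 (1387283_at), of the order of the median probe set of the array.

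Of the 13 probe sets, 4 had an FDR under 0.05 for lower expression in the MCAO group (Slfn4 1387134_at, Rsad2, Slfn5 1392842_at and Ly6e 1388347_at) and 1 for higher expression (Ifi27), beside the 0.628% and 0.129% of all probe sets given above. Since this contrast was in view when the genes were chosen, nothing is read from these counts. Just inside the threshold lay Ly6e 1388347_at for lower (0.0345) and Ifi27 for higher expression (0.0309), and just outside lay Irf7 (0.0529) and Slfn5 1388880_at (0.0793), both for lower expression. The median difference of the 13 probe sets was -0.61 SD of the probe set over the 6 rats, against 0.08 SD over all probe sets and -0.69 SD over the 1000 of widest range.

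**Figure D2:**
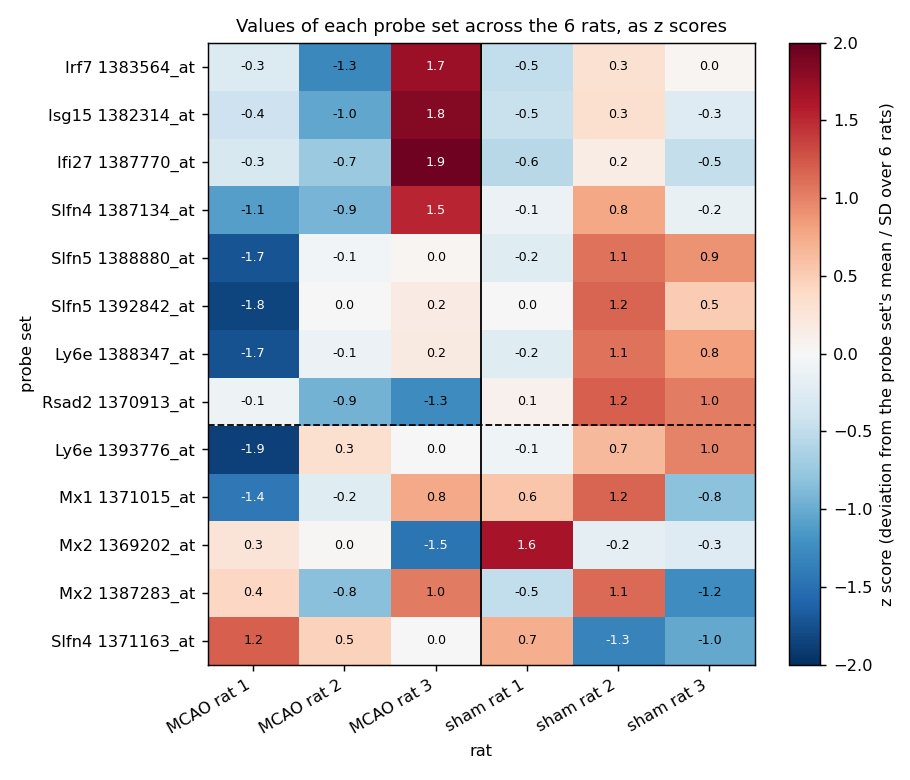
Z scores (deviation from the mean of the probe set, divided by its SD over the 6 rats) of all 13 probe sets (rows) in the 3 MCAO rats (left of the line) and the 3 sham rats (right of it), with the 5 probe sets of small range below the dashed line. MCAO rat 3 is highest in 4 rows and sham rat 2 in 6 rows, and MCAO rat 1 is lowest in 6.

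The order of the rats was compared with that of other probe sets of wide range. Of the 8 members among the 1000 of widest range, MCAO rat 3 was highest in 4 and sham rat 2 in 4, against 35.9% and 22.2% of all the 1000. MCAO rat 1 was lowest in 4, MCAO rat 2 in 3 and MCAO rat 3 in 1 of the 8, against 58.6%, 19.3% and 9.2% of the 1000. The full order of Ifi27 was shared by 1 other probe set of the 1000 (F5, coagulation factor V), that of Slfn4 1387134_at by 12 others and that of Rsad2 by 5 others. High values in MCAO rat 3 and low values in MCAO rat 1 were thus common among the probe sets of widest range in general. Over all probe sets MCAO rat 3 was highest in 15.5% and MCAO rat 1 lowest in 19.5%.

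Ifi27 did not depart from Irf7 and Isg15. Over the 6 rats it correlated with Isg15 at r = 0.98 and with Irf7 at r = 0.94, and Irf7 with Isg15 at r = 0.98. Spearman's rho was 0.94 for Ifi27 with either gene and 1.0 for Irf7 with Isg15. Only the places of MCAO rat 1 and sham rat 3 were exchanged between the order of Ifi27 and that of the other two genes. Within the groups, after the group means were subtracted, r was 0.998 with Isg15 and 0.97 with Irf7. With Slfn4 1387134_at the correlation of Ifi27 was 0.85, with Ly6e 1388347_at 0.18 and with Slfn5 0.10 and 0.17. These values describe 6 rats whose arrays were normalized together, and without MCAO rat 3 Ifi27 correlated with Isg15 at 0.93 and with Irf7 at 0.83.

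Rsad2 had another course in the values as deposited, an order that quantile normalization removes. It correlated at r = -0.42 with Ifi27, -0.25 with Isg15 and -0.11 with Irf7 over the 6 rats. Without MCAO rat 3 the same correlations were 0.73, 0.92 and 0.95. Among the remaining 5 rats Rsad2 was therefore ordered much as Irf7 and Isg15 were, and its different course lay in MCAO rat 3, which had the highest Irf7, Isg15 and Ifi27 and the lowest Rsad2. The 4 probe sets of Slfn5 and Ly6e correlated with one another at r between 0.94 and 0.997. This course was not theirs alone, since Jak1, Irf2 and Trim5 had r of 0.99, 0.98 and 0.97 with Ly6e 1388347_at. The full order of Ly6e 1388347_at was held by 57 of the 1000 probe sets of widest range.

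**Figure D3:**
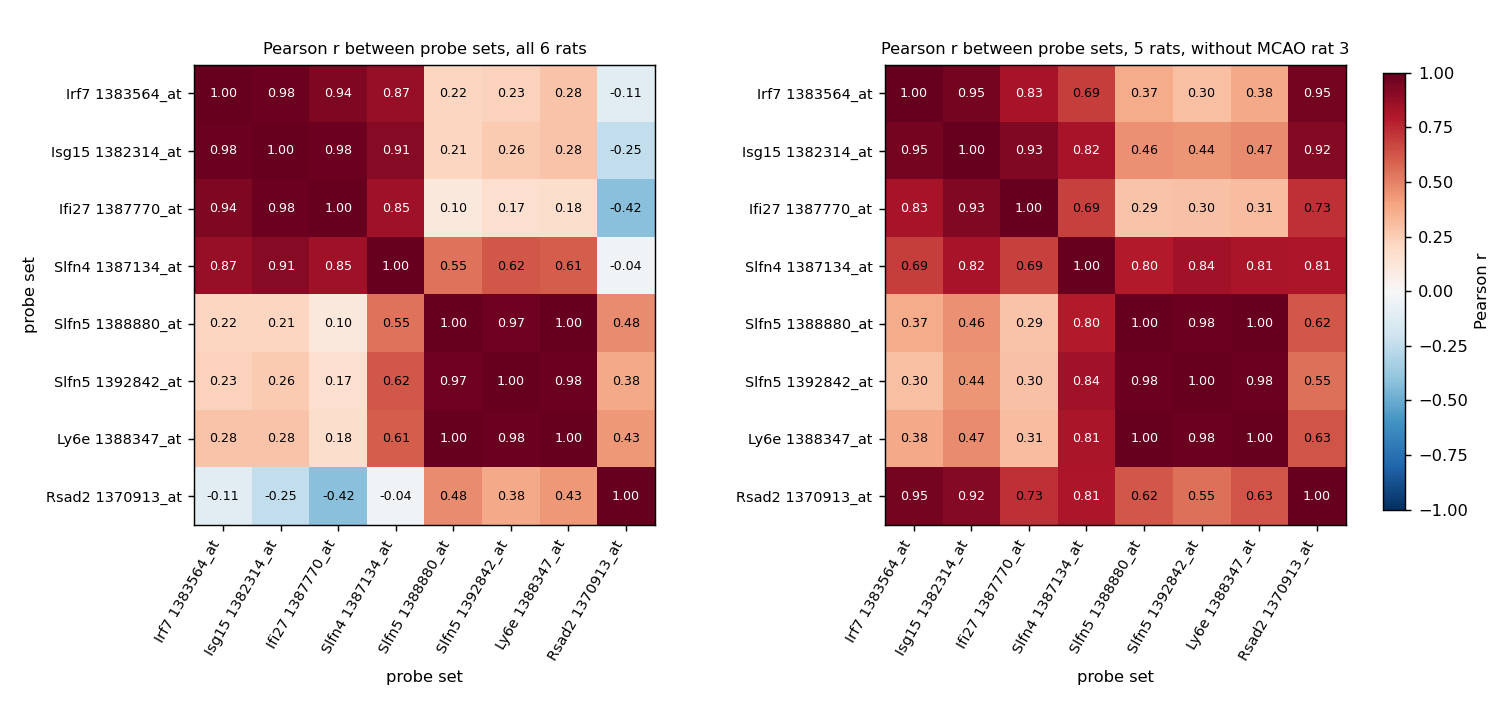
Pearson r (colour and printed value) between the 8 probe sets of wide range, over all 6 rats (left) and over 5 rats without MCAO rat 3 (right). Ifi27 has 0.98 with Isg15 on the left and 0.93 on the right, whereas Rsad2 and Irf7 have -0.11 on the left and 0.95 on the right.

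The direction of several differences turned when MCAO rat 3 was left out. Without it, 12 of the 13 probe sets were lower in the MCAO group, against 8 of 13 with all rats. With all rats 46.6% of all probe sets and 80.1% of the 1000 of widest range were lower in the MCAO group. Those shares were not counted without MCAO rat 3. The log2 difference of Ifi27 without MCAO rat 3 was -0.025, with an FDR of 0.00393 for lower expression. This was the opposite of its direction with all rats. Irf7 had -0.021 (FDR 0.00143) and Isg15 -0.0086 (FDR 0.00564) without MCAO rat 3, also lower. Slfn4 1387134_at had -0.035, more than with all rats, and Rsad2 had -0.0018, close to its value with all rats. In this comparison 8 of the 13 probe sets had an FDR under 0.05 for lower expression and 0 for higher expression, beside 1.09% and 0.0644% of all probe sets. These 8 were the 8 members among the 1000 probe sets of widest range, where 226 of the 235 calls with all rats also lay. The share of calls among the 1000 was not counted without MCAO rat 3, and nothing is read from this count.

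Other rats also moved these values. Without MCAO rat 1 Slfn4 1387134_at had a log2 difference of 0.0038 and without MCAO rat 2 of 0.0012, both higher in the MCAO group. Its FDR for lower expression was then 0.0510 and 0.0818, no longer under 0.05. That of Ly6e 1388347_at was 0.106 without MCAO rat 1. The mean of Ifi27 remained higher in the MCAO group without MCAO rat 1 (0.094) and without MCAO rat 2 (0.117), but without MCAO rat 1 its FDR was 0.0426 for lower and 0.315 for higher expression. Rank Products multiplies ranks over the pairs of rats, so that its direction can differ from that of the mean. With all rats this was the case for 3 of the 235 probe sets with an FDR under 0.05. Without sham rat 1, 2 or 3, the number of members with an FDR under 0.05 was 0, 1 and 0, the 1 being Ifi27 for higher expression, beside 0.287%, 0.226% and 0.242% of all probe sets in either direction.

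**Figure D4:**
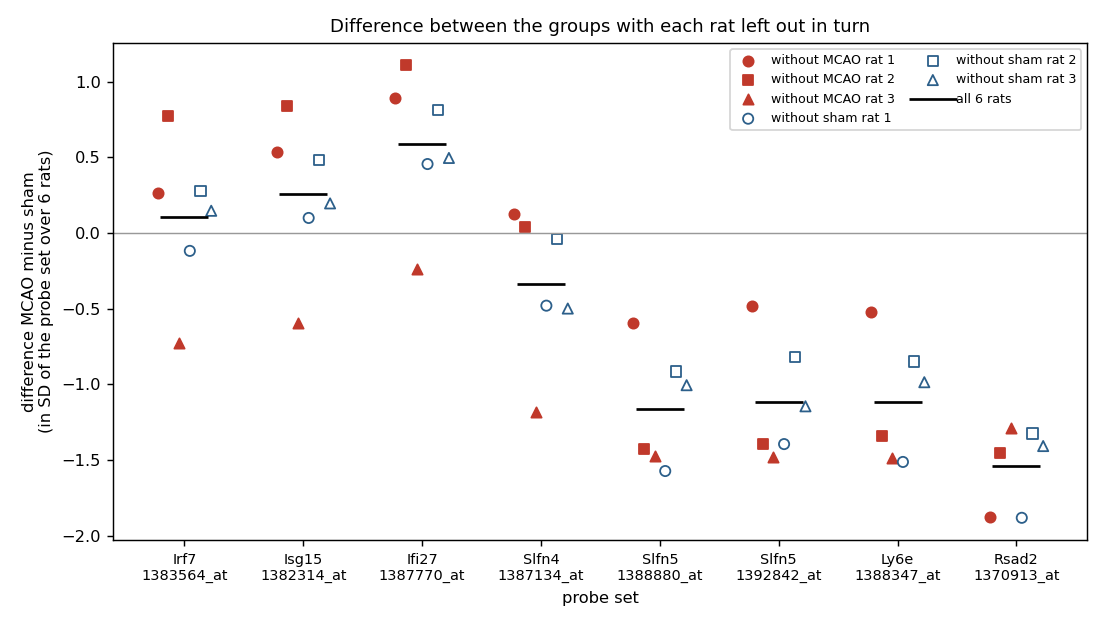
Log2 difference, MCAO minus sham, divided by the SD of the probe set over the 6 rats (y axis), for the 8 probe sets of wide range (x axis), with all 6 rats (black line) and with each rat left out (filled symbols for MCAO rats, open symbols for sham rats). Without MCAO rat 3 (filled triangles) all 8 are below 0, among them Irf7, Isg15 and Ifi27, which lie above 0 with all rats.

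The rest of the interferon pathway was examined with lists of 149 genes in 9 groups, of which 104 genes had 138 probe sets. Among the groups are the schlafen and Ly6 families, relatives of member genes that are counted here as pathway probe sets. By Rank Products 1 of the 138 probe sets was lower in the MCAO group and 0 were higher, beside 0.628% and 0.129% of all probe sets. That 1 was the probe set of Gbp7 (1382950_at), a guanylate-binding GTPase induced mainly by interferon gamma. It had 6.1905, 6.1920 and 6.1918 in MCAO rats 1, 2 and 3, against 6.1927, 6.1938 and 6.1926 in the sham rats. Its groups did not overlap, as for 6 of the 138 and 3.60% of all probe sets with the MCAO group below. The log2 difference was -0.00158 (SE 0.00060, FDR 0.0181). With limma 0 of the 138 passed the adjustment, and 4 had an unadjusted p under 0.05. Gbp7 no longer had an FDR under 0.05 when any 1 of the sham rats was left out. The same held among the brighter 15521 probe sets alone and after each probe set was divided by its range to a power. The median difference of the 138 probe sets was -0.33 SD, against 0.08 SD over all probe sets, and 68.1% were lower in the MCAO group, against 46.6% of all probe sets and 80.1% of the 1000 of widest range.

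Of the interferons themselves, Ifng, Ifnk and Ifnb1 were on the array with 1 probe set each, and the largest of their ranges was 1.43e-05 (Ifng). Among 21 probe sets of receptors and the JAK-STAT chain, Jak1, the kinase of type I and type II receptors, had -0.0023 (SE 0.0019), and Ifngr1, a chain of the interferon gamma receptor, had -0.00057 (SE 0.0014). Of 18 probe sets of sensors and interferon regulatory factors, Irf2 had -0.00037 (SE 0.00033) and Irf1 -0.00016 (SE 0.00026). All 3 groups had 0 probe sets with an FDR under 0.05.

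The 52 probe sets of 43 further type I interferon effectors also had 0 with an FDR under 0.05, and the largest differences were 0.0012 (SE 0.0073) for Lgals3bp, a secreted glycoprotein, and -0.0013 (SE 0.00065) for Trim5, an antiviral ubiquitin ligase. MCAO rat 3 was highest in 22 of the 52 (42.3%), against 15.5% of all probe sets and 35.9% of the 1000 of widest range. Ifit3, which binds viral RNA together with its relatives, had 5.8935, 5.8942 and 5.9002 in MCAO rats 1, 2 and 3, against 5.8953, 5.8967 and 5.8945 in the sham rats, with MCAO rat 3 highest as for Ifi27. Of the 18 pathway probe sets among the 1000 of widest range, MCAO rat 3 was highest in 10, and MCAO rat 1 was lowest in 12 and MCAO rat 2 in 5, where the shares over the 1000 are 35.9%, 58.6% and 19.3%. The likeness to Ifi27 ran between r = 0.94 for Ifit3 and -0.04 for Gbp7 in these genes, with 0.86 for Lgals9 and Lgals3bp, 0.82 for Ube2l6, the enzyme that transfers Isg15, and 0.82 for Ifit2. Jak1, Irf2 and Trim5 were instead like Ly6e 1388347_at, with r of 0.99, 0.98 and 0.97.

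Antigen presentation genes that interferon induces had 18 probe sets with 0 calls, and Psme1, a proteasome activator subunit, had -0.0017 (SE 0.0013). Negative regulators had 11 probe sets and other Ly6 genes 8, both with 0 calls, and their largest differences were -0.000237 (Otud5) and -0.000267 (Ly6g6c). Slfn2, the other schlafen gene on the array, had -0.0014 (SE 0.0024), with MCAO rat 3 highest and MCAO rat 1 lowest. Without MCAO rat 3, 8 of the 138 pathway probe sets had an FDR under 0.05 for lower expression and 0 for higher, beside 1.09% and 0.0644% of all probe sets. The 8 were those of Psme1, Dtx3l, Ifit3, Slfn2, Gbp7, Jak1, Lgals9 and Lgals3bp. All of them belonged to the 18 pathway probe sets among the 1000 of widest range. Since the share of calls among these 1000 was not counted without MCAO rat 3, nothing is read from the count of 8.

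The genes most like the interferon-induced genes over the 6 rats were sought among 786 probe sets of 1 gene symbol within the 1000 of widest range. The mean z score of the 12 probe sets other than Ifi27 was closest to Prf1 (perforin, r = 0.98), Klrb1a (an NK cell receptor), Slc38a5 and Ccl5 (a chemokine of T and NK cells; r = 0.97 each), and Arhgef3 (0.97). Ifi27 alone was closest to Slpi, a leukocyte protease inhibitor (r = 0.99), F5 (0.98), RT1-T24-3, a class I histocompatibility gene (0.96), Fgr, a myeloid kinase (0.95), and Ifit3 (0.94). Between Ifi27 and the mean z score of the other 12, r was 0.52 over the 6 rats and 0.88 within the groups. This mean gives the 5 probe sets outside the 1000 of widest range the same weight as the others. It also averages opposed courses, such as Slfn4 1371163_at and Ly6e 1388347_at (r = -0.92), so that it describes no single gene.

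Markers of blood cell types were measured on the same arrays, because MCAO rat 3 stood apart in some of them. Of 9 neutrophil markers, MCAO rat 3 was highest in 8, and the summed log2 level lay between 57.73 and 58.05 in the MCAO rats and between 57.83 and 57.88 in the sham rats. The mean z score of these markers was 1.62 in MCAO rat 3 and correlated with Ifi27 at r = 0.94. Platelet markers were highest in MCAO rat 3 for 7 of 8 genes, with sums between 71.695 and 71.702 in the MCAO rats and between 71.695 and 71.699 in the sham rats, and r = 0.89 with Ifi27. Monocyte markers were highest in MCAO rat 3 for 5 of 9 genes (r = 0.77), with sums between 58.36 and 58.44 in the MCAO rats and between 58.38 and 58.42 in the sham rats. For neutrophil and platelet markers, as for Ifi27, MCAO rat 3 stood far above every other rat, so that r depends heavily on it. The lowest rat differed: MCAO rat 1 for neutrophil markers (mean z -0.60), sham rat 1 for platelet markers (-0.86) and MCAO rat 2 for Ifi27 (z -0.75). Whether these correlations hold without MCAO rat 3 was not tested. DFW values have no zero, so that no marker could be called absent, and the part of these cell types in the values of Ifi27, Irf7, Isg15 and Slfn4 was not tested.

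Among the neutrophil markers, Csf3r, the receptor of granulocyte colony-stimulating factor, had 6.360, 6.377 and 6.426 in MCAO rats 1, 2 and 3, against 6.376, 6.373 and 6.374 in the sham rats, and Il1r2, a decoy receptor of interleukin 1, had a log2 difference of 0.00049 (SE 0.00022). Both had an FDR under 0.05 for higher expression (0.0346 and 0.0335). Of all probe sets 0.129% had such an FDR for higher and 0.628% for lower expression, and of the 1000 of widest range 33 and 193. S100a9 and Lrg1, also made by neutrophils, had an FDR under 0.05 for lower expression (0.0380 and 0.0298), although their mean log2 differences were 0.0027 (SE 0.028) and 0.0050 (SE 0.022), above 0. In both, as in Slfn4 1387134_at, MCAO rat 1 was lowest and MCAO rat 3 was highest.

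Among lymphocyte markers, the mean z score of T cell markers correlated with Ifi27 at r = -0.16, that of B cell markers at r = -0.19 and that of NK cell markers at r = 0.60. Of 10 T cell markers, Cd3g (-0.0031, SE 0.0021) and Tcf7 (-0.0060, SE 0.0040) had an FDR under 0.05 for lower expression, and so had Ms4a1 (-0.0051, SE 0.0023), Fcmr (-0.0048, SE 0.0022) and Cr2 (-0.00083, SE 0.00033) of 7 B cell markers. MCAO rat 3 was highest in 0 of these 17 markers. An FDR under 0.05 for lower expression was found in 0.628% of all probe sets and in 193 of the 1000 of widest range. The summed log2 level of the T cell markers lay between 63.265 and 63.290 in the MCAO rats and between 63.284 and 63.301 in the sham rats. That of the B cell markers did not overlap, with 44.380 to 44.392 in the MCAO rats and 44.393 to 44.403 in the sham rats. Of 10 NK cell markers, Prf1 had an FDR of 0.0204 for lower expression, with a log2 difference of -0.0049 (SE 0.0041), and MCAO rat 3 was highest in 2 of the 10, with a mean z score of 0.73. Plasmacytoid dendritic cells, the main source of type I interferon in blood, had 4 measured markers and erythroid cells 7, with 0 calls each. The largest log2 differences were -0.00024 (SE 0.00016) for Ccdc50 among the markers of plasmacytoid dendritic cells, -0.00092 (SE 0.00053) for Slc4a1 among the erythroid, 0.00045 (SE 0.00048) for Treml1 among the platelet and -0.0013 (SE 0.0016) for Csf1r among the monocyte markers. Csf1r went against most of its list, in which 4 of 13 probe sets were lower in the MCAO group (median difference 0.42 SD). The part of lymphocytes in the values of Slfn5 and Ly6e was not tested.

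**Figure D5:**
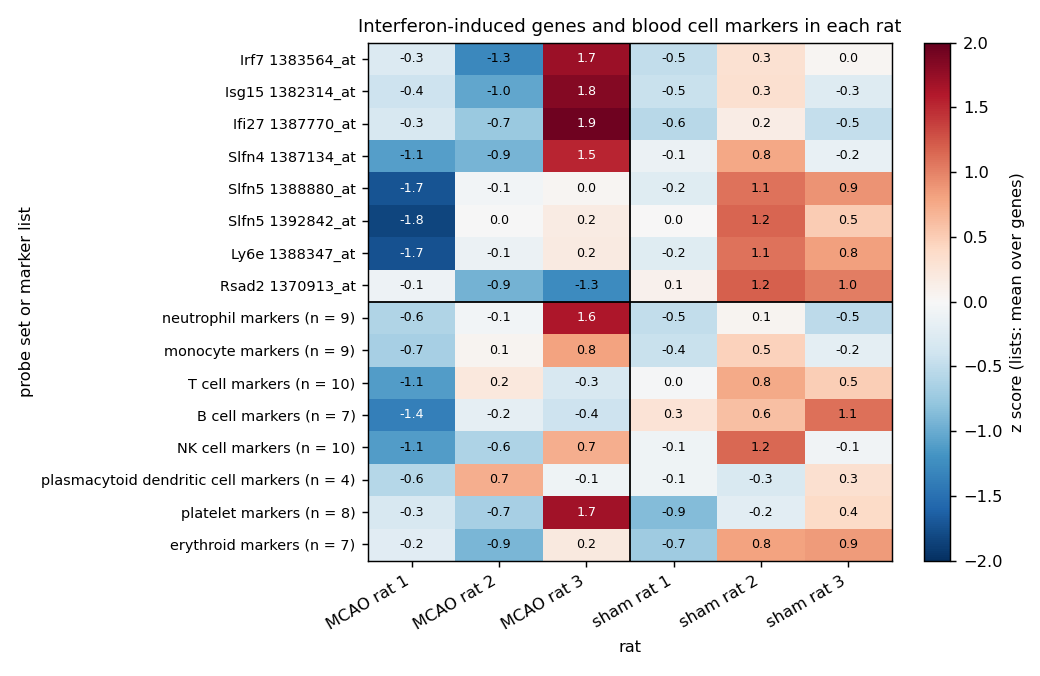
Z scores over the 6 rats of the 8 probe sets of wide range (upper rows) and mean z scores of 8 lists of blood cell markers (lower rows, n is the number of genes), for the MCAO rats (left of the line) and the sham rats (right of it). MCAO rat 3 has 1.6 in the neutrophil and 1.7 in the platelet markers, and MCAO rat 1 is the lowest rat in 6 of the 8 lists, all but the platelet and erythroid markers.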

How the data were processed

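Whole-blood mRNA of 3 MCAO and 3 sham rats was measured on 6 Affymetrix rat genome arrays, 1 per rat, with separate animals as replicates. The log2 values deposited by the authors had been normalized over the arrays with DFW in R 2.7.2, with 1 value per probe set and array. No log base is stated, and log2 was taken from the range of 4.93 to 14.43. DFW compresses differences unequally, so that probe sets with a wide range take the extreme ranks. Signal over background cannot be given, and precision is limited by the number of arrays.

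Of 31099 probe sets, 57 controls were left out. Rank Products, the method of the study, was written anew in Python 3.11.15 (numpy 2.4.6, pandas 2.3.3) for 2 unpaired groups, with 9 pairwise differences, 100 permutations and an FDR threshold of 0.05, over all 31042 probe sets. Differences of log2 values with SE came from limma 3.58.1 in R 4.3.3, with Benjamini-Hochberg adjusted p-values over all probe sets. Both were tried on simulated normal data with large shifts. For Rank Products all simulated probe sets had the same SD, unlike DFW values, so that its calls here were not checked. Genes were named from the array annotation (20826 probe sets with 1 symbol), and 1392842_at from the gene list of the study. The members, the pathway lists (interferons, receptors and JAK-STAT, sensors and interferon regulatory factors, effectors, negative regulators, interferon gamma GTPases, antigen presentation, schlafen, Ly6) and the 8 marker lists were chosen with earlier results of these data known. Named were all members, called probe sets of a list and, of its 2 largest differences, 1 or both, and the 5 genes most alike, and, chosen after their values were seen, Ifnb1, Ifit2, Ifit3, Lgals9, Ube2l6 and the pathway genes called without MCAO rat 3. A gene of a marker list was taken by its probe set with the highest mean. Cross-hybridization between related genes (Slfn4 and Slfn5, Mx1 and Mx2) was not tested.

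Alternatives were limma, same-numbered rats as a block, quantile normalization, centring on the median, the brighter 15521 probe sets, division by the range to the power of 0.75, an FDR of 0.01, and leaving out each rat. The miRNA arrays were not used here.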

Additional observations from a re-analysis of the deposited data

How the results depend on the processing

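Counts of probe sets with an FDR under 0.05 are given for all probe sets, the 13 member probe sets and the 138 other pathway probe sets, which were 235, 5 and 1. With limma the counts after adjustment were 0, 0 and 0 (1150, 1 and 4 at an unadjusted p under 0.05). The sample titles number the rats of each group and do not say whether same-numbered rats were paired. Deviations of same-numbered rats from the group means correlated at -0.42, -0.85 and -0.90, and at 0.21, 0.040 and 0.066 after scaling to unit SD. Other pairs had values from -0.83 to 0.93, and from -0.23 to 0.17 after scaling. With 3 rats in a group such correlations cannot decide whether the rats were paired. limma with the replicate number as a block gave 0, 0 and 0 (1929, 2 and 12 unadjusted). Quantile normalization gave 125, 3 and 1, the brighter probe sets 117, 3 and 0, division by the range 105, 1 and 0, and an FDR of 0.01 gave 79, 1 and 0. Leaving out 1 rat gave 70 to 358, 0 to 8 and 0 to 8, the highest always without MCAO rat 3, and the causes were not tested.

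Of the 13 probe sets, 8 were lower in the MCAO group, 6 after quantile normalization or centring and 7 to 12 with a rat left out. MCAO rat 3 was highest in 4, in 5 after quantile normalization and in 4 after centring. The full order of the rats was kept in 3 of 13 after quantile normalization and in 9 after centring. With a rat left out, the difference of Ifi27 (0.0620) lay between -0.0248 without MCAO rat 3 and 0.117 without MCAO rat 2. That of Slfn4 1387134_at (-0.0101) lay between -0.0352 without MCAO rat 3 and 0.00378 without MCAO rat 1, and was 0.00118 without MCAO rat 2. Quantile normalization set the difference of Rsad2 to 0, since it has the same rank on all arrays. The likeness of Ifi27 to the other 12, r = 0.52, was 0.88 within groups and 0.58 without MCAO rat 3. Of 117 differences of single probe sets under the alternatives, 10 had the other sign, among them Irf7 without MCAO rat 3 or sham rat 1 and Isg15 without MCAO rat 3.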
